A study of Bos taurus with 8 samples.

Results

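The mRNA described here encode the tumor necrosis factor (TNF) superfamily: its ligands, its receptors, and the TNF receptor-associated factors (TRAF), most of which bind receptors inside the cell. They were chosen from a table of mRNA abundance in bovine corpora lutea (CL) by gene symbol, with earlier results of these data known. A row was a member if its symbol began with TNFSF or TNFRSF and a number, was a numbered TRAF, or was TNF, LTA, LTB, LTBR, FAS, FASLG, CD40, CD40LG, CD70, NGFR, EDAR or EDA2R. By this rule 33 of 13861 rows were members, each on 1 row, of which 11 were ligands, 17 receptors and 5 TRAF. LTB, CD70, EDAR, EDA2R, TRAF2 and TRAF4 were not analysed here.

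The CL came from Holstein heifers on day 17 after estrus, when the decision is made whether the gland regresses or is kept for a pregnancy. The 4 heifers of the estrous cycle had not been bred, and the 4 heifers of pregnancy had been bred. No other treatment is named for either group, and the ages of the heifers are not given. Each library was made from total RNA of luteal tissue of 1 animal, so that steroidogenic, endothelial, stromal and immune cells were measured together. In such tissue fewer cells of a type and less RNA per cell cannot be told apart.

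Ligands of this superfamily are mostly made as membrane proteins that can be shed, and they act as trimers that bring receptors together. One class of receptors carries a death domain in its tail and can start caspase activation, while another binds TRAF and leads to NF-kappa-B and stress kinases. Soluble decoy receptors bind ligand without signaling. In the CL of cattle, TNF and Fas ligand are best known as products of immune cells that can kill luteal and endothelial cells during regression, and the question put to the data was whether any of these mRNA differed on the day that pregnancy is recognized.

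The values are normalized counts, in which the reads of each gene in a CL were divided by 1 factor for that CL. Total reads ran from 42770725 to 48294165 per CL. The lowest value of each CL, 0.920 to 1.09 normalized counts, was taken as 1 read. Since no lower value occurred, values near 1 may stand for single reads or for genes without reads. Markers of steroidogenic luteal cells summed to 1546170 to 1855280 normalized counts in the CL of the cycle and 1677060 to 2398910 in those of pregnancy, the highest sum of any list. Of the other lists, fibroblast and pericyte markers summed to 540571 to 809585 and 506749 to 633025. Endothelial markers summed to 92024 to 112405 and 85541 to 117688, and macrophage and dendritic cell markers to 21632 to 34668 and 22226 to 41109. B and plasma cell markers summed to 3909 to 8324 and 3216 to 3963. Neutrophil and mast cell markers did not overlap between the groups, at 7061 to 9645 and 11067 to 20213 normalized counts. The separation of the sum rested on KIT, since the sums of the 8 remaining markers overlapped, at 129 to 510 and 201 to 343. Of these 8, CXCR2 did not overlap by itself, at 12.0 to 27.7 and 35.0 to 58.5 normalized counts. KIT and CXCR2 made up 22.2% of the 9 markers, where 2.03% of all rows were higher without overlap. The part of any of these markers in the results for the members was not tested.

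No member of the superfamily passed the test for a difference between pregnancy and the estrous cycle. The test was limma on log2(normalized count + 1), with Benjamini-Hochberg adjustment over all 13861 rows and a threshold of 0.05, which 3 rows passed, or 0.0216%. The smallest adjusted p of a member was 0.593, for FASLG. By direction, 0.0144% of all rows passed as higher in pregnancy and 0.00721% as lower. On the recovered reads 0 members passed either, and the smallest adjusted p of a member was 0.559 in edgeR, 0.586 in limma-voom and 0.164 in DESeq2, which gave no adjusted p for 5 of the 33. These tools called 0.00721%, 0.00721% and 0.685% of all rows. At an unadjusted p under 0.05 there were 4 members, or 12.1%, where 7.51% of all rows were at this level. FASLG was the 1 with a higher value in pregnancy (3.66% of all rows were higher at this level), and TNFRSF10A, TNFRSF12A and TNFRSF6B were the 3 with a lower value (3.85% of all rows). In edgeR, limma-voom and DESeq2 the members at an unadjusted p under 0.05 also numbered 4, beside 8.12%, 7.55% and 9.43% of all rows. In edgeR and DESeq2 they held TNFSF18 in place of TNFRSF10A. DESeq2 gave no adjusted p for TNFRSF10A, at a mean of 641 normalized counts. It did give an adjusted p for TNF and FASLG, at means of 45.2 and 43.2. The absence of TNFRSF10A in DESeq2 can therefore not be read as a p above 0.05.

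The groups were fully separate, with no overlap between CL of the cycle and CL of pregnancy, in 3 members, or 9.09%, where this held for 4.3% of all rows. TNF and FASLG were the 2 that were higher in pregnancy (2.03% of all rows) and TNFRSF12A the 1 that was lower (2.27%). The log2 difference is the log2 fold change of pregnancy over the cycle, and it was above 0 in 18 members and below 0 in 15, with a median of 0.12. Of all rows 50.1% were above 0 and 49.9% below, with a median of 0.00. The ligands had 8 above 0 and 3 below, with a median log2 difference of 0.29, the receptors 7 above and 10 below, with a median of −0.03, and the TRAF 3 above and 2 below, with a median of 0.03. With the CL left out in turn, the members at an unadjusted p under 0.05 numbered 3 to 5 in limma, but those higher in pregnancy were 0 without cyclic replicate 3 and 3 without pregnant replicate 2.

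**Figure D1:**
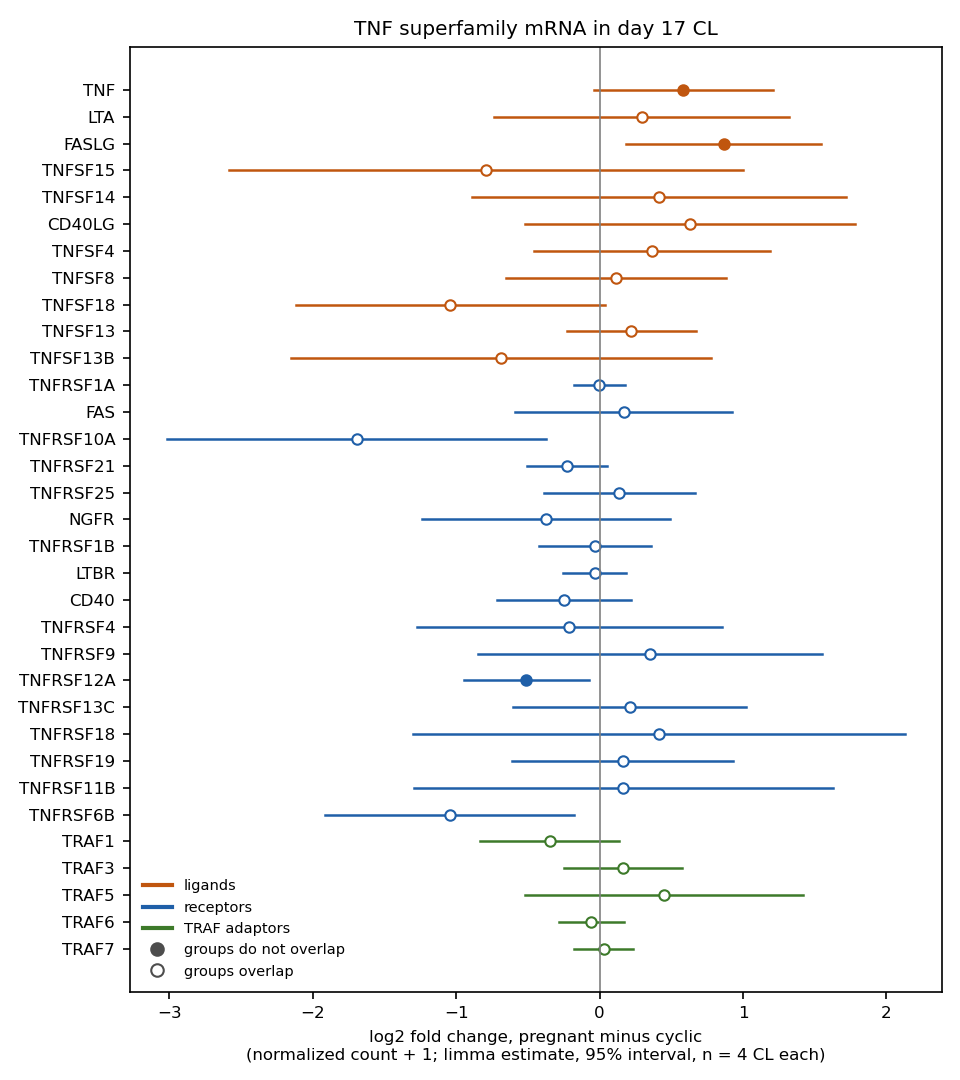
Log2 fold change of each of the 33 members, pregnancy minus estrous cycle, from limma on log2(normalized count + 1) with 4 CL per group; lines are 95% intervals, and filled points mark members whose groups do not overlap. FASLG lies at 0.87 with an interval of 0.18 to 1.55, TNFRSF10A at −1.70 with −3.02 to −0.37, and no member passed after adjustment over all rows.

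Among the ligands, TNF (tumor necrosis factor), the founding cytokine of the family, was a mRNA of few reads, 24 to 66 per CL. In the estrous cycle its normalized counts were 26.1, 35.7, 41.5 and 41.2, and in pregnancy they were 53.7, 42.8, 60.7 and 60.2. Every CL of pregnancy was thus above every CL of the cycle, although pregnant replicate 2 was only just above the highest cyclic CL. The group means were 36.1 ± 7.21 and 54.4 ± 8.34 normalized counts (SD, n = 4). On the log2 scale the difference was 0.59 (SE 0.28, 95% interval −0.04 to 1.21), with a limma adjusted p of 0.668 and a range of 0.528 to 0.822 over the alternatives. LTA, lymphotoxin alpha, which binds the same receptors, had 5 to 15 reads per CL, with normalized counts of 4.91 to 13.0 in the cycle and 5.97 to 15.0 in pregnancy, so that the groups overlapped.

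FASLG, Fas ligand, which is displayed by activated T and natural killer (NK) cells and kills through FAS, also had few reads, 21 to 57 per CL. The CL of the cycle had 23.9, 41.5, 20.8 and 38.3 normalized counts, and those of pregnancy had 53.7, 56.7, 52.4 and 58.0. The CL of pregnancy lay close together and above all of the cycle, which were spread more widely. The means were 31.1 ± 10.3 and 55.2 ± 2.59 normalized counts (SD, n = 4). The log2 difference was 0.87 (SE 0.30), with an unadjusted p of 0.0178 and a limma adjusted p of 0.593, which ran from 0.312 to 0.822 over the alternatives. It stayed between 0.70 and 1.02 on the log2 scale when each CL was left out.

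TNFSF18, the ligand of the T cell receptor GITR and known in other species from endothelial and antigen-presenting cells, had the most negative log2 difference of the ligands. Its normalized counts in the cycle were 829, 118, 337 and 243, and in pregnancy 153, 169, 144 and 118. The groups overlapped, and the cyclic CL differed among themselves far more than the pregnant CL, with means of 382 ± 312 and 146 ± 21.3 (SD, n = 4). The log2 difference was −1.04 (SE 0.48, 95% interval −2.12 to 0.04, limma adjusted p 0.663, with 0.164 to 0.822 over the alternatives). It was −0.55 without cyclic replicate 1, which held the highest value.

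TNFSF13, also called APRIL, a survival factor of B and plasma cells, was the other ligand named for its abundance. It had 192, 307, 317 and 211 normalized counts in the cycle and 293.5, 318.5, 265 and 297 in pregnancy. The groups overlapped, with means of 257 ± 64.4 and 293 ± 22.0 (SD, n = 4) and a log2 difference of 0.22 (SE 0.20, limma adjusted p 0.812). Its relative TNFSF13B, or BAFF, had 1 to 14 reads per CL, with 7.85 to 10.9 normalized counts in the cycle and 0.995 to 12.9 in pregnancy.

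Most of the remaining ligands can act on T cells. TNFSF4, the ligand of OX40, had 63.3 to 162 normalized counts in the cycle and 67.7 to 147 in pregnancy, and TNFSF8, the ligand of CD30, had 70.7 to 117 and 64.7 to 175. CD40LG, by which helper T cells activate B cells and macrophages, had 2.97 to 10.6 and 5.52 to 16.1 normalized counts, or 3 to 15 reads. TNFSF14, also called LIGHT, had 5.89 to 17.4 and 5.97 to 33.3. TNFSF15, a ligand first described in endothelial cells, had 1.98 to 50.1 and 3.68 to 7.67 normalized counts, and its high value came from cyclic replicate 4. In all 5 the groups overlapped, and the limma adjusted p ran from 0.786 for CD40LG to 0.954 for TNFSF8.

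**Figure D2:**
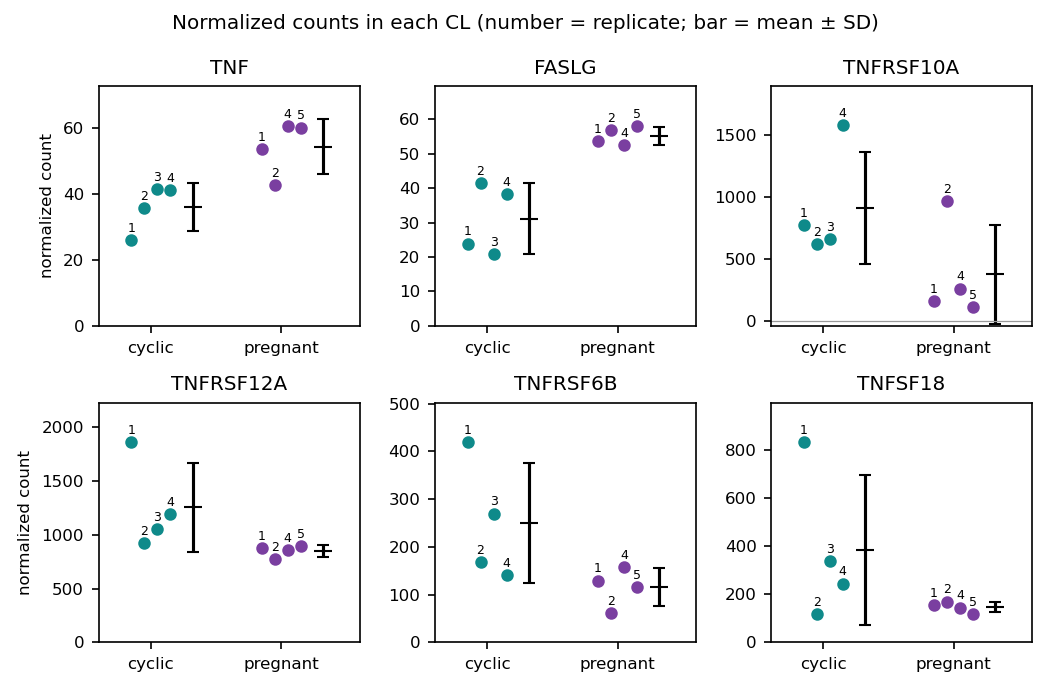
Normalized counts of TNF, FASLG, TNFSF18, TNFRSF10A, TNFRSF12A and TNFRSF6B in each CL, with 4 cyclic and 4 pregnant CL per panel, points numbered by replicate, and bars for the mean ± SD. The groups do not overlap for TNF, FASLG and TNFRSF12A, and cyclic replicate 1 is the highest CL for TNFSF18, TNFRSF12A and TNFRSF6B.

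Because FASLG, CD40LG and LTA are made mainly by T and NK cells, markers of these cells are set beside them. All 18 of 18 listed markers were in the table, each with a log2 difference above 0 and a median of 0.54, where all rows had 0.00. At an unadjusted p under 0.05 there were 5 markers, or 27.8%, where 3.66% of all rows were higher at this level. They were CD3E, CD3G, CD2, CD8A and CD8B, all higher in pregnancy, but none passed limma (smallest adjusted p 0.542). Their sum was 2054, 2768, 3382 and 3808 normalized counts in the cycle and 3734, 3969, 4759 and 3950 in pregnancy, so that the groups overlapped in cyclic replicate 4 and pregnant replicate 1. The groups did not overlap in 2 of the 18 markers, or 11.1%, where 2.03% of all rows were higher without overlap. CD2, an adhesion receptor of T and NK cells, had 268 to 447 normalized counts in the cycle and 493 to 606 in pregnancy, and CD8B, a coreceptor chain of cytotoxic T cells, had 112 to 140.3 and 149.6 to 262.

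Set against this sum, the groups no longer separated. FASLG was 11.6, 15.0, 6.14 and 10.1 normalized counts per 1000 of the T and NK cell markers in the cycle, and 14.4, 14.3, 11.0 and 14.7 in pregnancy. TNF, which macrophages also make, was 12.7, 12.9, 12.3 and 10.8 per 1000 in the cycle and 14.4, 10.8, 12.8 and 15.2 in pregnancy. In both, the groups overlapped, but the mean stayed higher in pregnancy. The means per 1000 were 10.7 ± 3.68 and 13.6 ± 1.73 for FASLG, and 12.2 ± 0.939 and 13.3 ± 1.96 for TNF (SD, n = 4). CD40LG per 1000 ran from 0.877 to 3.84 and from 1.16 to 4.08, and LTA from 1.29 to 6.35 and from 1.50 to 3.81. The mean per 1000 was higher in pregnancy for CD40LG, at 2.09 ± 1.27 and 2.46 ± 1.37 (SD, n = 4). It was lower in pregnancy for LTA, at 3.21 ± 2.23 and 2.57 ± 1.01 (SD, n = 4). Whether the number of T and NK cells accounts for the higher FASLG and TNF was not tested.

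**Figure D3:**
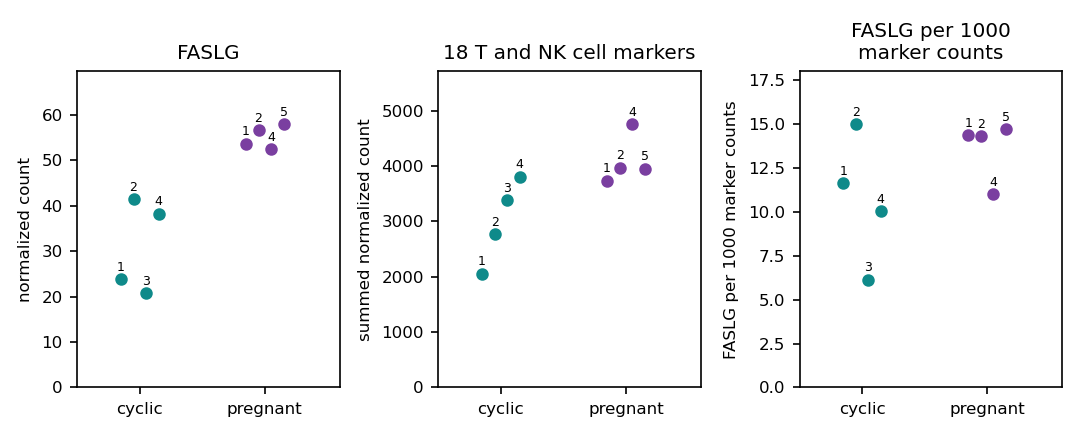
FASLG in normalized counts, the sum of the 18 T and NK cell markers in normalized counts, and FASLG per 1000 marker counts, in 4 cyclic and 4 pregnant CL each, with points numbered by replicate. FASLG alone separates the groups, whereas the marker sum (2054 to 3808 and 3734 to 4759) and the ratio (6.14 to 15.0 and 11.0 to 14.7) overlap.

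Of the receptors with a death domain, TNFRSF1A, the main receptor through which TNF acts on most cells, had 13742 to 16105 reads per CL. Its normalized counts were 14938, 14824, 15429 and 13559 in the cycle and 13660.2, 14488, 14816 and 15683 in pregnancy. The groups overlapped almost fully, with means of 14688 ± 797 and 14662 ± 837 (SD, n = 4). The log2 difference was −0.003 (SE 0.08, limma adjusted p 0.997), and its 95% interval of −0.18 to 0.17 was the narrowest of the members.

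FAS, the receptor of Fas ligand, had 357, 330.3, 322 and 321 normalized counts in the cycle and 494, 163, 423 and 569 in pregnancy. The cyclic CL were nearly alike and lay inside the range of the pregnant CL, of which 3 were above all cyclic CL and pregnant replicate 2 was below them. The means were 332 ± 16.6 and 412 ± 176 (SD, n = 4), with a log2 difference of 0.17 (SE 0.34, 95% interval −0.59 to 0.93, limma adjusted p 0.920). It was 0.56 without pregnant replicate 2 and −0.034 without pregnant replicate 5.

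TNFRSF10A, which in humans is a receptor of the death ligand TRAIL, had the largest log2 difference in size of the 33 members in limma. It had 769.6, 620.1, 661 and 1578 normalized counts in the cycle and 161, 966, 261 and 109.6 in pregnancy. Of the pregnant CL, 3 were below every cyclic CL and pregnant replicate 2 was above 3 of them, so that the groups overlapped. The means were 907 ± 452 and 375 ± 399 (SD, n = 4), and the log2 difference was −1.70 (SE 0.59, unadjusted p 0.0172, limma adjusted p 0.593, with 0.251 to 0.822 over the alternatives other than DESeq2, which gave none). Leaving out each CL moved it from −2.33, without pregnant replicate 2, to −1.28, without pregnant replicate 5, and it was −1.39 without cyclic replicate 4. On the recovered reads it was −1.28 in both edgeR and DESeq2, where TNFSF18 was further from 0, at −1.38 in both. The ratio of group means, pregnancy over cycle, was 0.413 for TNFRSF10A. It was further from 1 for TNFSF15, at 0.307, and TNFSF18, at 0.383. The symbol TNFRSF10A is the one in the table, and it was the 1 member whose symbol had no entry in the bovine RefSeq gene names.

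The other death domain receptors were TNFRSF21, a receptor known from neurons and T cells, TNFRSF25, the receptor of TNFSF15, and NGFR, the low-affinity neurotrophin receptor. TNFRSF21 had 592 to 800 normalized counts in the cycle and 575 to 618 in pregnancy, with a log2 difference of −0.23 and a limma adjusted p of 0.700. TNFRSF25 had 119.7 to 175 and 119.3 to 201, and NGFR had 405 to 769.8 and 169.8 to 601 normalized counts. The groups overlapped in all 3.

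Of the receptors that bind TRAF, TNFRSF12A, the receptor of the cytokine TWEAK and known as a gene of injured and remodeling tissue, was the 1 whose groups did not overlap. It had 1854, 923, 1048 and 1188 normalized counts in the cycle, and 874, 770.3, 856 and 894 in pregnancy. The lowest cyclic CL was 923 and the highest pregnant CL 894, so that the groups were separate by a small margin. The means were 1253 ± 415 and 848 ± 54.5 (SD, n = 4), with a log2 difference of −0.51 (SE 0.19, 95% interval −0.95 to −0.08, unadjusted p 0.0255, limma adjusted p 0.614, with 0.253 to 0.822 over the alternatives). Without cyclic replicate 1 it was −0.31.

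TNFRSF1B, the second receptor of TNF, found mainly on leukocytes and endothelial cells, had 1528, 1454, 2301 and 1909.8 normalized counts in the cycle and 1575, 1638, 2282 and 1519.7 in pregnancy. The means were 1798 ± 390.2 and 1754 ± 356 (SD, n = 4), and the log2 difference was −0.03 (SE 0.18, limma adjusted p 0.978). LTBR, the lymphotoxin beta receptor of stromal cells, had 5295, 5658, 5850.1 and 4811 in the cycle and 4832, 5254, 5019 and 6005 in pregnancy. Its means were 5403 ± 457 and 5277 ± 515 normalized counts (SD, n = 4), with a log2 difference of −0.04 (SE 0.10, limma adjusted p 0.951). Neither receptor showed a difference beyond the spread within its groups.

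CD40, the receptor of CD40LG on B cells, macrophages and endothelial cells, had 579, 374, 581 and 449.5 normalized counts in the cycle and 383, 305, 494 and 490.1 in pregnancy. The groups overlapped, with means of 496 ± 102 and 418 ± 91.5 (SD, n = 4) and a log2 difference of −0.25 (SE 0.21, limma adjusted p 0.794). Of the costimulatory receptors of T cells in this class, TNFRSF4, or OX40, had 78.3 to 245 normalized counts in the cycle and 42.8 to 164 in pregnancy, TNFRSF9, or 4-1BB, had 9.66 to 45.1 and 13.9 to 49.7, and TNFRSF18, or GITR, had 0.988 to 9.78 and 1.07 to 14.7. TNFRSF13C, the receptor of BAFF on B cells, had 14.1 to 32.8 and 24.0 to 41.9, and TNFRSF19 had 63.0 to 156 and 64.5 to 143.5. In each the groups overlapped, with limma adjusted p from 0.891 to 0.933 over these 5.

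Of the decoy receptors, TNFRSF6B, which in humans is a soluble protein that binds Fas ligand, TNFSF14 and TNFSF15, had lower values in most CL of pregnancy. It had 419, 168, 269.8 and 141 normalized counts in the cycle and 129.5, 61.7, 157 and 115 in pregnancy. Pregnant replicate 4, at 157, was above cyclic replicate 4, at 141, so that the groups overlapped. The means were 249 ± 126 and 116 ± 40.2 (SD, n = 4), with a log2 difference of −1.05 (SE 0.39, unadjusted p 0.0230, limma adjusted p 0.614, with 0.201 to 0.821 over the alternatives). TNFRSF11B, osteoprotegerin, the decoy of RANK ligand, had 4 to 24 reads per CL, with 3.93 to 18.8 normalized counts in the cycle and 3.68 to 25.8 in pregnancy.

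The ligand FASLG and its decoy TNFRSF6B had log2 differences of opposite sign. FASLG per 100 normalized counts of TNFRSF6B was 5.71, 24.7, 7.69 and 27.1 in the cycle and 41.5, 91.9, 33.3 and 50.5 in pregnancy. The groups did not overlap in this ratio, a description with no test that was singled out after its values were seen. Of 14 such ratios of a ligand to a receptor, 2 did not overlap between the groups, or 14.3%. The other was TNF to TNFRSF1B, at 0.0171 to 0.0246 in the cycle and 0.0261 to 0.0396 in pregnancy. FASLG and TNF already did not overlap by themselves, and the share of such ratios among other genes was not computed. The groups overlapped in the remaining 12 ratios. Among these were FASLG to its signaling receptor FAS, at 0.0644 to 0.126 and 0.102 to 0.348, and the other ligands of the same decoy, TNFSF14, at 0.0234 to 0.103 and 0.0667 to 0.290 per count of TNFRSF6B, and TNFSF15, at 0.00733 to 0.354 and 0.0234 to 0.0806. These ratios rest in part on genes of few reads, and their levels depend on the lengths of both transcripts, which were not used here.

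Most TRAF carry signals from the receptors. TRAF6, a ubiquitin ligase shared with the Toll-like and interleukin receptors, had 1147, 994, 1183 and 1139 normalized counts in the cycle and 1022, 1003, 1142 and 1122 in pregnancy, with means of 1116 ± 83.5 and 1072 ± 69.9 (SD, n = 4). TRAF7, which binds the kinase MEKK3, had 6849, 6975, 7592 and 6801 normalized counts in the cycle and 6222, 7845, 7199.7 and 7574 in pregnancy, with means of 7054 ± 366 and 7210.3 ± 709.8 (SD, n = 4). The log2 differences were −0.06 (SE 0.10, limma adjusted p 0.912) and 0.03 (SE 0.09, limma adjusted p 0.960), both smaller than their standard errors.

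TRAF1, which is itself induced by NF-kappa-B, had 622 to 1336 normalized counts in the cycle and 638 to 773 in pregnancy, and 2 cyclic CL, at 1021 and 1336, were above all others. TRAF3, a brake on the noncanonical NF-kappa-B pathway, had 560.2 to 991 and 705 to 961, and TRAF5 had 20.8 to 106 and 61.3 to 76.6. The groups overlapped in all 3, with limma adjusted p of 0.728, 0.846 and 0.824.

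**Figure D4:**
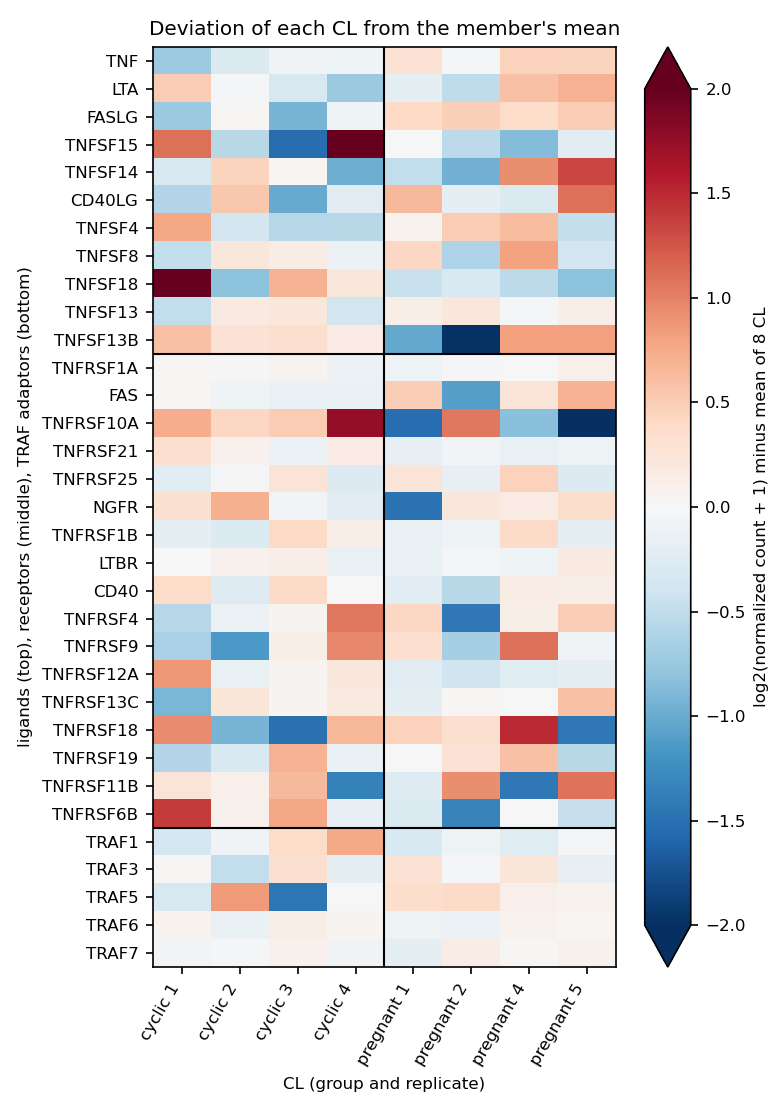
Deviation of each of the 33 members in each of the 8 CL from its mean over all CL, on the scale log2(normalized count + 1), with members in rows by role and CL in columns by group; colors run from −2 to 2. TNFRSF1A, LTBR, TRAF6 and TRAF7 are near 0 in each CL, whereas TNFRSF10A, TNFSF15 and TNFSF18 differ widely between CL.

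How much a member varied between CL went with how abundant it was. The 6 members with a mean of at least 1000 normalized counts had a ratio of highest to lowest CL of 1.16 to 2.41 (median 1.25), with 1.16 for TNFRSF1A. The 16 with a mean of 50 to 1000 had ratios of 1.39 to 14.4 (median 2.63), with 14.4 for TNFRSF10A and 6.78 for TNFRSF6B. The 11 with a mean under 50 had 1 to 66 reads per CL and ratios of 2.33 to 25.3 (median 5.44). TNF and FASLG were among these 11, whereas TNFRSF10A, TNFSF18 and TNFRSF6B differed between CL at 62 reads or more.

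The precision of the comparison differed in the same way. In 15 of the 33 members the 95% interval of the log2 difference lay within −1 and 1, that is within a 2-fold difference. These were 2 ligands (TNFSF8 and TNFSF13), 9 receptors and 4 TRAF. In 5, TNFRSF1A, TNFRSF1B, LTBR, TRAF6 and TRAF7, it lay within −0.5 and 0.5. For the other 18, the interval still held differences of 2-fold or more in at least 1 direction.

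No single CL held most of the extremes. Pregnant replicate 5 had the highest value of 10 members and pregnant replicate 1 of 0, while pregnant replicate 2 had the lowest value of 7. The SD was larger in the cycle for 19 members and larger in pregnancy for 14.

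Several members lie beside each other in the bovine genome, by the gene order of RefSeq (ARS-UCD2.0). FASLG and TNFSF18 are adjacent, with log2 differences of 0.87 and −1.04, and TNFSF4, with 0.36, follows after 1 gene. TNF and LTA are adjacent, with 0.59 and 0.29, as are TNFSF15 and TNFSF8, with −0.79 and 0.12, and TNFRSF4 and TNFRSF18, with −0.21 and 0.41. LTBR and TNFRSF1A have 1 gene between them. Neighbors thus had log2 differences of the same sign in some pairs and of opposite sign in others. By these gene models 5 members overlap another protein-coding gene, among them TNFRSF12A, which overlaps CLDN6, a claudin with 0.966 to 7.91 normalized counts in these CL. TNFRSF11B overlaps COLEC10, which had 15.8 to 37.4 normalized counts, beside 3.68 to 25.8 for TNFRSF11B itself. The libraries were strand-specific, but how strand entered the counting was not stated in the sources used here.

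The genes that act next to these members were read from 5 lists. Of 92 listed genes, 79 were in the table, with 47 log2 differences above 0 and 32 below and a median of 0.05. The unadjusted p was under 0.05 for 3 that were higher and 3 that were lower, or 7.59%, close to the 7.51% of all rows, and none passed limma. Of the 26 adaptors and kinases at the receptor, 18 were above 0 and 8 below. The 3 at an unadjusted p under 0.05, or 11.5%, were higher in pregnancy (3.66% of all rows). TRAF3IP2, the adaptor of the interleukin-17 receptor, had 2145 ± 280 and 2669 ± 239.7 normalized counts (SD, n = 4; log2 difference 0.32, SE 0.11, limma adjusted p 0.598). TAB1, the partner of the kinase TAK1, had 1595 ± 122 and 1895 ± 205 (0.25, SE 0.11, limma adjusted p 0.647). MAP3K1, a kinase upstream of JNK, had 3048 ± 336 and 3789 ± 624 (0.30, SE 0.13, limma adjusted p 0.652), and the groups overlapped in all 3.

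Of the 17 ubiquitin ligases and deubiquitinases, 9 were above 0 and 8 below. USP2, a deubiquitinase, was the 1 at an unadjusted p under 0.05, or 5.88%, and was lower in pregnancy (3.85% of all rows). Its means were 108 ± 46.5 (cycle) and 54.7 ± 13.4 (pregnancy) normalized counts (SD, n = 4). The log2 difference was −0.89 (SE 0.35), with an adjusted p in limma of 0.622. Of the 14 death effectors and their brakes, 7 were above 0 and 7 below, and none was at an unadjusted p under 0.05. The most abundant of them, PEA15, a death effector domain protein that can restrain FAS killing, had 9116 ± 869 and 8540 ± 603 (limma adjusted p 0.831). Of the 4 genes of shedding and secretion, 3 were above 0, with FURIN, a convertase that cleaves several TNF superfamily ligands, at 7963 ± 763 and 8889.8 ± 879.6 (limma adjusted p 0.731).

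Of the 18 target genes of TNF and NF-kappa-B, 10 were above 0 and 8 below. The 2 at an unadjusted p under 0.05, or 11.1%, were both lower in pregnancy (3.85% of all rows). TNFAIP6, a secreted protein that binds hyaluronan and is induced by TNF, had 2915, 2871, 2725 and 3644 normalized counts in the cycle and 2333, 1620.2, 1612 and 1494 in pregnancy. Every CL of pregnancy was below every CL of the cycle, with means of 3039 ± 412 and 1765 ± 383 (SD, n = 4). The log2 difference was −0.80 (SE 0.15), with an adjusted p of 0.349 in limma and 0.00393 in DESeq2, where it was the 1 gene of the 79 that passed and 0.685% of all rows did. CXCL2, a chemokine of neutrophils, had 168 ± 80.2 and 92.0 ± 20.6 normalized counts (SD, n = 4), with a log2 difference of −0.77 (SE 0.34) and an adjusted p in limma of 0.659.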

How the data were processed

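RNA from the day 17 CL of 4 cyclic and 4 pregnant heifers was sequenced strand-specifically from total RNA. The deposited values are signal: the authors divided the read counts of each gene by 1 factor per CL. Aligner, counter and genome build were not given in the sources used here, so no coordinates are printed. The authors' means of each group were not used.

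Values divided by the smallest one of their CL were whole numbers of reads in 99.9% of cases (within 0.01), and these reads were tested in edgeR 4.0.16, DESeq2 1.42.0 and limma-voom as alternatives. Among values of 2 to 9 reads, an even number was held by 71.4 to 77.2%, so the precision that read numbers imply may be overstated. No library was present more than 1 time, since the chi-square per degree of freedom between CL was 63.4 or more.

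The main test was limma 3.58.1 (R 4.3.3, trend) on log2(value + 1), which understates changes of low genes, with all 8 CL and no covariate. A mean of 1 or more was required, which all 13861 rows had, so that all 33 members were tested. The p-values set the difference between groups against the spread between animals within groups, which limma moderates using all rows. Scripts in Python 3.11.15 (numpy 2.4.6, pandas 2.3.3, matplotlib 3.10.9) were tested on simulated data. The labels give no pairing beyond shared replicate numbers.

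Values per CL are printed for members at an unadjusted p under 0.05 or with groups that do not overlap, for the 2 most abundant ligands, receptors and TRAF, and for TNF, TNFRSF1A, TNFRSF1B, FAS, FASLG and CD40. From each pathway list, genes at an unadjusted p under 0.05 are named, or otherwise the most abundant. The members and lists were chosen with earlier results of these data known. Alternatives were quantile normalization, a pseudocount of 0.1 or 0.5, no filter or a minimum mean of 5, a replicate block, leaving out each CL, other thresholds and the 3 other tools. RefSeq names matched 32 of 33 members by symbol. The table's spellings Fas and Cd40 are printed in capitals.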

Additional observations from a re-analysis of the deposited data

Results flagged for a closer look

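In 4 of the 66 groups of 4 CL (33 members in both groups), 1 CL lay far from the other 3 by Dixon's criterion, which chance meets in about 1 of 20 groups. For TNFSF4 this was cyclic replicate 1, with 162 normalized counts beside 63.3 to 73.4 for the remaining cyclic CL. For TNFRSF10A it was cyclic replicate 4, with 1578 beside 620.1 to 769.6. For NGFR it was pregnant replicate 1, whose value of 169.8 was below the 527 to 601 of the remaining CL of pregnancy. For TNFRSF1B it was pregnant replicate 4, with 2282 beside 1519.7 to 1638. The 4 values came from 4 different CL, and none of these members passed in limma with or without that CL.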

How the results depend on the processing

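No member passed under any alternative, in limma, edgeR, limma-voom or DESeq2, with any CL left out, or at an adjusted p under 0.10. Over all rows, 3 mRNA passed in limma, 95 in DESeq2, 1 in edgeR, 1 in limma-voom and 1 to 4 with each CL left out. At an unadjusted p under 0.01, 0 members remained of 4 (0 higher and 0 lower), as did 0 adaptors and kinases, 0 ubiquitin genes and 1 target gene, and limma-voom had 1 target gene in place of 2. With each CL left out there were 3 to 5 members (0 to 3 higher, 1 to 4 lower), 3 to 5 without overlap between groups, and from the lists 0 to 3 adaptors and kinases, 0 to 2 ubiquitin genes, 0 to 1 death effectors, 0 to 0 sheddases and 1 to 4 target genes. The cause of these shifts was not tested. Some log2 fold changes near 0 changed sign: TNFRSF1A from −0.003 to 0.015 with quantile normalization and −0.041 to 0.031 with each CL left out, FAS −0.034 to 0.56, TNFRSF1B −0.16 to 0.095, LTBR −0.099 to 0.0057 and TRAF7 −0.015 to 0.097.

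With a replicate block for the numbers in the labels, 0 rows and 0 members passed, 2 members were at an unadjusted p under 0.05 (1 lower), and 2 ubiquitin genes were. Cyclic replicate 3 and pregnant replicate 5 shared no number with a CL of the other group. The group difference in this setting thus came from replicates 1, 2 and 4 alone, which are fewer CL than in the main test. FAS was at −0.048 and TNFRSF1B at 0.16 on the log2 scale. The labels do not say that a number marks a shared animal or batch, and same-numbered CL did not deviate together (correlations of 0.02, −0.05 and 0.01), so the block is given here only.

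Low numbers of reads limit the 11 members with a mean under 50 normalized counts, and 4 CL per group limit all of them. The cell types of the tissue were not separated.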
